A study of Homo sapiens with 13 samples.

Results

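The regions described here are stretches of protein-coding transcripts at which wild-type SRSF2 was recovered on RNA and the P95H mutant was almost absent. They were taken from the authors' deposited table of binding windows that differed between the genotypes, as rows annotated to a protein-coding transcript with a mean under 0.2 CPM (read counts scaled to library size) in P95H. This gave 847 entries, 843 distinct windows of 21 or 22 bases (both ends counted) and, after merging windows that overlap on a strand, 620 regions in 515 genes. The whole table held 8100 distinct windows, of which 5113 were protein-coding, so the bound took 16.5% of the protein-coding windows. The regions were chosen by their measured P95H level within a table of windows that differ from WT. Their binding values are therefore given as a description, without a test.

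HITS-CLIP, in which RNA is crosslinked to a protein by ultraviolet light, recovered with it and sequenced, was made from 4 samples of P95H cells and 4 samples of WT cells. All were HEL cells, a human erythroleukemia line, stably carrying SRSF2 P95H or wild-type SRSF2 and given doxycycline at 1 µg/ml for 36 hours, and the protein was recovered through a Flag tag. RNA-seq after rRNA depletion covered 2 P95H and 2 WT samples given 1 µg/ml for 48 hours, and 1 P95H sample labelled uninduced. The labels do not say which promoter drives the construct, whether a line is 1 clone, or that the endogenous gene was removed, and they call the numbered samples biological replicates without saying how cultures were kept apart. P-values below therefore measure the spread between these samples.

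SRSF2 is an SR protein: its RNA recognition motif binds exonic enhancer sequences and its arginine- and serine-rich domain helps to recruit the splicing machinery to nearby splice sites. Wild-type SRSF2 is known to bind the RNA motifs CCNG and GGNG about equally well, and substitution of proline 95, next to the recognition motif and recurrent in myelodysplastic syndromes, shifts its preference towards CCNG and away from GGNG.

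Sequence was read for the windows that lie within the stretches around gene starts in the RefSeq promoter table (GRCh38.p14), which held 11 of the 620 regions. The remaining regions lie elsewhere in their genes and their letters were not read here. The 11 are shown to let the motif classes be seen in place, each on its RNA strand, 5′ to 3′ with T for U, and capitals mark every match to GGNG or CCNG, which may overlap each other. Positions are GRCh38, read as counted from 1 with both ends included; if the deposited starts count from 0, the base at the lowest coordinate lies outside the window.
ST7L, chr1:112619226-112619246, minus strand: ttctcggtCCCGGttccCCAG
HNRNPM, chr19:8444996-8445016, plus strand: aaaatGGCGgcaGGGGtcgaa
CCDC12, chr3:46976663-46976683, minus strand: GGCGaaaggaacggctgaagg
SHOX2, chr3:158106148-158106168, minus strand: tttctcctcctccctctcctc
MEF2C, chr5:88883297-88883317, minus strand: ctcctcctcctcctcttccga
UBXN4, chr2:135741824-135741844, plus strand: agccaaggttgcGGGGGccgc
ZNF580, chr19:55641902-55641922, plus strand: agtGGGGctctGGGGAGgtac
C6orf48, chr6:31834918-31834938, plus strand: ttttgcgaagtgggctcgtgg
LIN28B, chr6:104957061-104957081, plus strand: acgtgtgctcaGGGGGCCAGa
EWSR1, chr22:29268274-29268294, plus strand: cGGCGcctagagggaaagcga
PFKFB4, chr3:48556762-48556783, minus strand: CCCGGgatGGCGtccccacggg

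GGNG was present in 7 of these 11 windows and CCNG in 3, with 5 holding GGNG alone, 1 (ST7L) CCNG alone, 2 both and 3 neither. The class depends on the strand that the table assigns. ST7L overlaps a window of CAPZA1 on the opposite strand with similar values, 0.07 ± 0.05 CPM in P95H and 2.39 ± 2.09 CPM in WT, against 0.11 ± 0.08 and 2.49 ± 2.10 CPM for ST7L, and its letters hold both GGNG and CCNG when read on that strand. The HNRNPM window, read on the other strand, holds CCNG and no GGNG. Of the 620 regions, 19 were overlapped by a window on the opposite strand, HNRNPM and APOBR among them, and 11 of the 19 by another nearly unbound region. HNRNPM, an hnRNP that regulates alternative splicing, had a pair of GGNG matches in a window centred 31 bases after its RefSeq start. It averaged 0.07 ± 0.07 CPM in P95H against 2.49 ± 2.24 CPM in WT (authors' mean and standard error over 4 libraries, as in all HITS-CLIP values here). The windows of ST7L, CCDC12, MEF2C, UBXN4, ZNF580 and LIN28B were centred upstream of theirs, from -172 bases in CCDC12 to -21 bases in UBXN4. SHOX2 and MEF2C, which encode developmental transcription factors, had pyrimidine-rich windows with neither motif. They averaged 0.18 ± 0.13 and 0.09 ± 0.04 CPM in P95H, against 1.77 ± 1.52 and 1.46 ± 1.35 CPM in WT. The other 20 regions lower in P95H for which a sequence was read, those at or above the bound, held GGNG in 12 and CCNG in 8. Regions higher in P95H held GGNG in 10 of 15 and CCNG in 4. Among all 21-base stretches of the table, 35.2% held GGNG and 38.7% held CCNG. With 11 windows, all near gene starts, the shares of 63.6% for GGNG (exact Clopper-Pearson 95% interval 30.8% to 89.1%, which covers counting error only) and 27.3% for CCNG are not told apart from those of the other regions.

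EWSR1, which encodes an RNA-binding protein of the FET family, held both kinds of window at its start. The nearly unbound region (chr22:29268274-29268297) averaged 0.11 ± 0.08 CPM in P95H and 1.00 ± 0.74 CPM in WT. A region that overlaps it by 12 bases (chr22:29268286-29268309) averaged 2.57 ± 1.94 CPM in P95H and 0.24 ± 0.24 CPM in WT. Their windows are shown together, with the same capitals.
EWSR1, nearly unbound by P95H, chr22:29268274-29268294, plus strand: cGGCGcctagagggaaagcga
EWSR1, higher in P95H, chr22:29268286-29268306, plus strand: ggaaagcgagagGGAGacgga
Each window held 1 GGNG match and no CCNG. The authors' deposited table gave the overlapping regions opposite signs, a log2 change of P95H over WT of -2.86 (adjusted p 0.000199) for the first and 2.79 (adjusted p 1.13e-06) for the second. All 4 means had standard errors close to the mean in size, the smallest being 0.08 for 0.11 CPM.

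Across the 620 regions the WT mean was low, from 0.41 to 12.01 CPM with a median of 1.28, and the P95H mean ran from 0 to 0.19 CPM with a median of 0.06. P95H was listed at 0 in 121 regions. A WT mean of at least 5 CPM was reached by 15 regions and one of at least 2 CPM by 98, while 183 were under 1 CPM. The log2 change in the authors' deposited table ran from -9.42 to -1.59 with a median of -4.32. Where P95H is listed at 0 its size depends on how the authors' fit treated counts of 0. Most regions (467) were a single window, 110 were 2 merged windows and 43 were 3 or more. They lay on both strands (300 plus, 320 minus), in all 620 cases on the strand of the gene to which the table assigns them, at a median of 19246 bases from the gene's annotated start. The bound cut through neighbouring windows: C7orf50 had a window at 0.19 CPM in P95H, inside it, and one 4 bases further at 0.20 CPM, outside it, with WT means of 6.85 CPM for both. FBL also stood just inside, at 0.19 CPM in P95H and 5.81 CPM in WT. Just outside, at 0.20 CPM in P95H, stood the histone chaperone gene ANP32E, with 12.74 ± 11.77 CPM in WT, and a LYAR window beside the region described next, with 9.92 ± 8.84 CPM in WT.

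The region with the highest WT mean was in LYAR, which encodes a nucleolar zinc-finger protein of growing cells (ENSG00000145220, chr4:4274471-4274496, minus strand). It averaged 0.05 ± 0.05 CPM in P95H and 12.01 ± 11.36 CPM in WT, so its WT standard error was nearly as large as its mean. CALD1, the gene of the actin- and myosin-binding caldesmon, averaged 0.10 ± 0.09 CPM in P95H against 10.20 ± 9.42 CPM in WT over 8 merged windows (ENSG00000122786, chr7:134947636-134947698, plus strand). NCL, which encodes the nucleolar RNA-binding protein nucleolin, was listed at 0 in P95H against 6.52 ± 5.97 CPM in WT (ENSG00000115053, chr2:231455398-231455442, minus strand).

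FBL, the methyltransferase fibrillarin of ribosomal RNA modification, had adjoining windows at 0.19 ± 0.19 and 0.16 ± 0.14 CPM in P95H, against 5.81 ± 5.70 and 5.19 ± 5.13 CPM in WT (chr19:39840626-39840646 and chr19:39840647-39840667, minus strand). EIF3A, the scaffold subunit of translation initiation factor eIF3, averaged 0.19 ± 0.11 CPM in P95H and 5.72 ± 4.03 CPM in WT (chr10:119044052-119044076, minus strand). HMGN5, a nucleosome-binding protein gene, averaged 0.09 ± 0.07 CPM in P95H and 5.22 ± 4.38 CPM in WT at the highest of its 3 regions. These genes share no single role, and the nucleolus is named by 3 of them (LYAR, NCL and FBL), a grouping made after their values were seen.

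Among the same 12 highest regions, DHX38 and ZMAT2 had the smallest WT standard errors relative to the mean, at ratios of 0.54 and 0.57. DHX38, the helicase of the second step of splicing, averaged 0.18 ± 0.16 CPM in P95H and 5.41 ± 2.92 CPM in WT (chr16:72096853-72096907, plus strand). ZMAT2, a zinc-finger protein of the activating spliceosome, averaged 0.10 ± 0.10 CPM in P95H and 5.33 ± 3.02 CPM in WT (chr5:140704457-140704477, plus strand). The others in this set were C7orf50 (0.19 ± 0.19 CPM in P95H, 6.90 ± 5.76 CPM in WT), APOBR, a lipoprotein receptor gene (0.16 ± 0.15 and 5.86 ± 5.33 CPM), RILPL2 (0.19 ± 0.11 and 5.55 ± 3.66 CPM) and AP3D1, the delta subunit of the AP-3 vesicle adaptor (0.16 ± 0.11 and 5.41 ± 4.37 CPM).

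**Figure D1:**
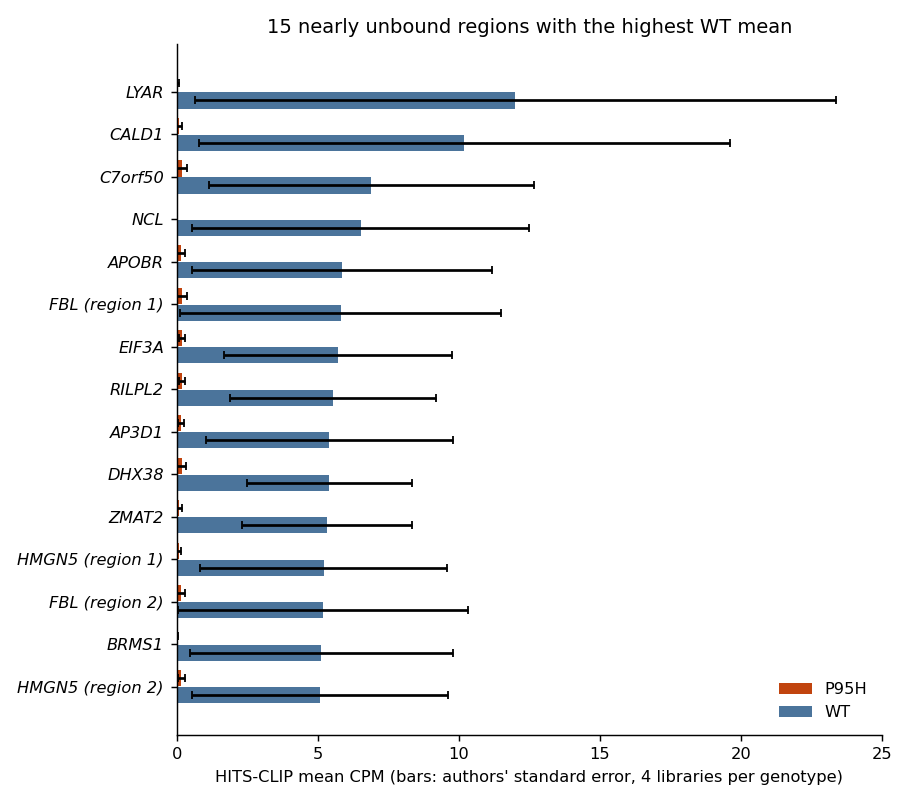
Mean HITS-CLIP signal in CPM of the 15 nearly unbound regions with the highest WT mean, P95H above WT for each gene, with the authors' standard error over 4 libraries per genotype as error bars. P95H stays at or under 0.19 CPM, and the WT error bars reach close to 0 in rows such as LYAR (12.01 ± 11.36 CPM).

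How far a single library could carry the WT mean was worked out from the ratio of its standard error to the mean. With 4 values that cannot be negative, that ratio is 0 when the libraries are equal and 1 when a single library holds everything. Among windows of the whole table with a mean of at least 2 CPM, the highest ratio was 1 in P95H and in WT and none exceeded it, which is the limit for a standard error made from the sample SD over 4 libraries. The ratio fixes a lowest and a highest share for the largest library, computed here with allowance for the rounding of the deposited values. Which library it was is not shown by the table.

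In most nearly unbound regions 1 library held the larger part of the WT signal. The ratio had a median of 0.88 and ran from 0.34 to 0.99. The largest WT library held at least 50% of the WT signal in 563 of 620 regions (90.8%), at least 75% in 374 (60.3%) and at least 90% in 204 (32.9%). In 42 regions the deposited values allow all of it to come from 1 library, and in the other 578 at least 2 must have held some. At least 3 libraries must have held signal in another 42 regions (6.77%), and in no region do the values require all 4. In no region could the largest library be bounded under 50%.

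**Figure D2:**
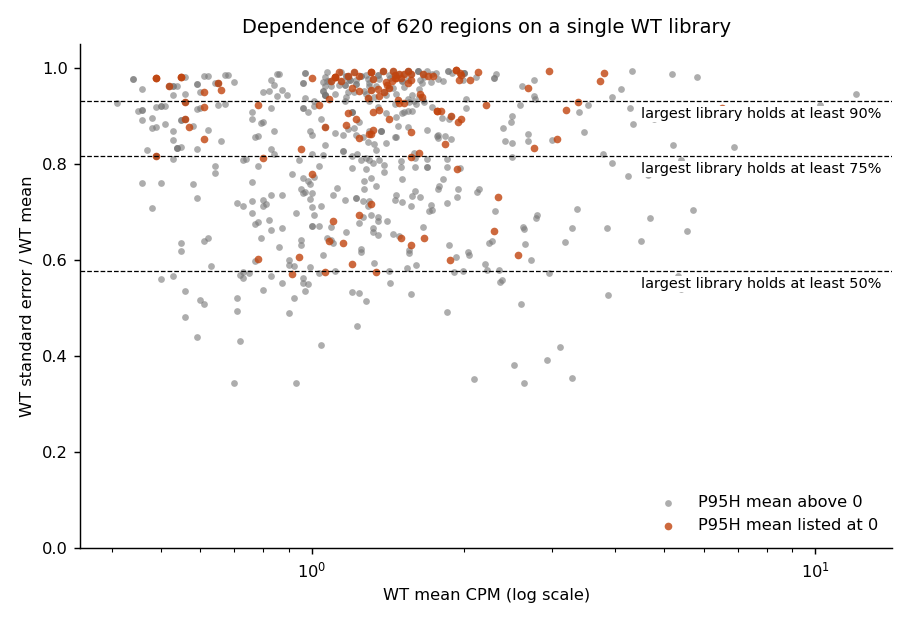
Ratio of the WT standard error to the WT mean against the WT mean in CPM (log scale) for the 620 nearly unbound regions, with regions listed at 0 in P95H in orange. Dashed lines mark the ratios above which the largest of the 4 WT libraries holds at least 50%, 75% or 90% of the WT signal, and most points lie above the lowest of them.

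The regions most spread over libraries were in PPP1CB, a catalytic subunit of protein phosphatase 1 (0.06 ± 0.04 CPM in P95H, 0.70 ± 0.24 CPM in WT), PPFIA1, a liprin (0.19 ± 0.10 and 0.93 ± 0.32 CPM), ARID4B, a subunit of SIN3 histone deacetylase complexes (0.03 ± 0.03 and 2.64 ± 0.91 CPM), the cohesin gene SMC1A (0.13 ± 0.11 and 2.10 ± 0.74 CPM) and the chromatin remodeller CHD6 (0.07 ± 0.03 and 3.28 ± 1.16 CPM). In each of these 5 at least 3 WT libraries held signal, and the largest held between 33.3% and 51.7% of it. PPP1CB, ARID4B and CHD6 thus combine a P95H mean under 0.1 CPM with a small relative error in WT. At the other end stood GOLGA6L4 (listed at 0 in P95H against 1.93 ± 1.92 CPM in WT), the haematopoietic GTPase RAC2 (0.09 ± 0.09 and 1.86 ± 1.85 CPM), ASNA1, an ATPase that inserts tail-anchored proteins (0.06 ± 0.04 and 1.86 ± 1.85 CPM), and the kinase gene JAK3 (0.01 ± 0.01 and 1.69 ± 1.68 CPM). In these 4 the largest WT library held at least 98.2% of the signal. GOLGA6L4 belongs to a family of near-identical copies, to which reads can be misassigned.

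A small adjusted p in the authors' deposited table did not mark the regions with the smaller relative error. The 277 regions with a ratio of at least 0.9 had a median adjusted p of 3.47e-07 in the authors' deposited table, and 78 of them were listed at 0 in P95H. The 67 regions with a ratio under 0.6 had a median adjusted p of 1.59e-05 there, and 4 were listed at 0. For the 276 regions in between it was 1.3e-06. The WT level differed as well, with median WT means of 1.31, 1.27 and 1.06 CPM from the highest ratios to the lowest.

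The nearly unbound regions leaned on 1 library more than the 1228 other regions lower in P95H, also at a similar WT level. Over all levels the largest WT library held at least 75% of the signal in 60.3% of the nearly unbound regions and in 30.4% of the others. Between 1 and 2 CPM in WT the shares were 65.8% of 339 nearly unbound regions and 36.0% of 342 others, and between 2 and 5 CPM they were 51.8% of 83 and 25.6% of 477. Under 1 CPM they were 53.6% of 183 and 56.5% of 62. The mirror set, 427 regions under 0.2 CPM in WT, had the largest P95H library at 75% or more in 46.1%. These are descriptions, since the values come from the contrast that chose the regions.

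**Figure D3:**
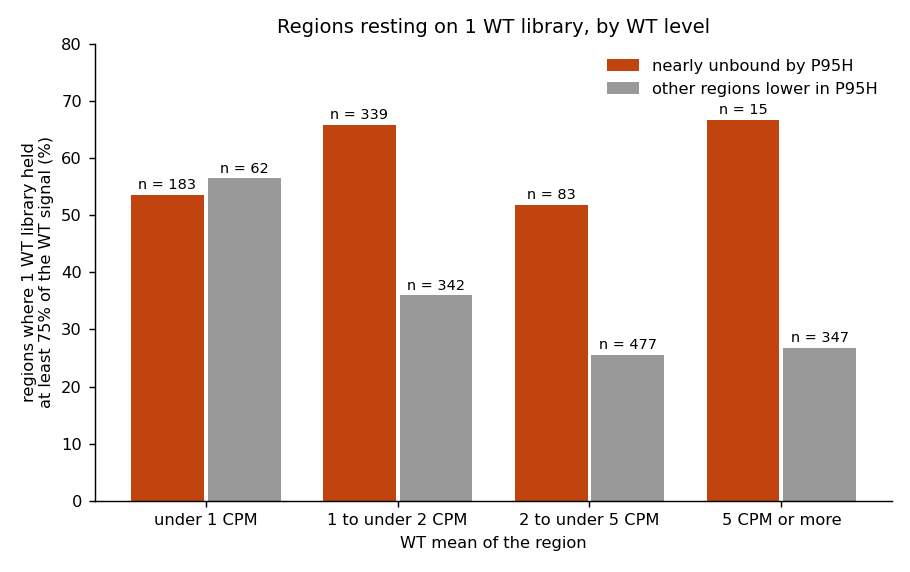
Share of regions in which the largest WT library held at least 75% of the WT signal, by WT mean, for regions nearly unbound by P95H (orange) and other regions lower in P95H (grey), with the number of regions above each bar. The orange bar is the higher at 1 to under 2 CPM (65.8% against 36.0%) and above, and not under 1 CPM.

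Of the 1596 genes with any protein-coding window in the table, 515 (32.3%) held a nearly unbound region. They had a median of 2 protein-coding windows, against 1 in the other 1081 genes. In 16 lists of genes by function, 96 of 295 genes with a window (32.5%) held one, close to that background. The list values below are counts without a test. The median number of windows per gene differed between lists, and whether it accounts for the shares was not tested. It was 4 in the chromatin and RNA-binding lists and 3 in the core spliceosome list, which lay above the background. Also above the background were the mitochondrial, myelodysplasia and transport lists, with a median of 1.5 windows each. The ubiquitin list lay above it with a median of 2. In the signalling list, which had the highest share, the median was 1. In the lists of chaperones and of nonsense-mediated decay factors, which lay under the background, it was 4.5. The SR protein and erythroid lists, with a median of 1, also lay under the background. So did the metabolic, translation and cell cycle lists, with 2, and the cytoskeletal list, with 2.5.

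Chromatin proteins, histone chaperones and high-mobility-group proteins had a nearly unbound region in 22 of 39 genes (56.4%), with a median of 4 windows per gene. Besides NCL they included CHD4, the remodeller of the NuRD complex (0.11 ± 0.07 CPM in P95H, 3.95 ± 3.71 CPM in WT), HMGB3, a chromatin-bending protein gene (listed at 0 in P95H, 2.57 ± 1.57 CPM in WT), and SUPT16H, a subunit of the FACT histone chaperone (0.15 ± 0.13 and 2.05 ± 1.25 CPM). In HMGB3 the largest WT library held at least 52.7% of the signal, against at least 90.8% in CHD4.

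RNA-binding regulators had one in 13 of 30 genes (43.3%, median of 4 windows per gene). QKI, a regulator of splicing and RNA stability, averaged 0.14 ± 0.14 CPM in P95H and 3.53 ± 3.26 CPM in WT, and HNRNPA1, a splicing repressor, 0.16 ± 0.16 and 3.36 ± 2.37 CPM. HNRNPA1 has many processed copies in the genome, between which reads can be misassigned, and whether they were was not tested. Core spliceosome genes had one in 9 of 23 (39.1%). After DHX38 came DDX23, the helicase that helps release U1 from the 5′ splice site (0.01 ± 0.01 CPM in P95H, 4.78 ± 4.27 CPM in WT), and CWC22, which links the spliceosome to the exon junction complex (listed at 0 in P95H, 1.80 ± 1.64 CPM in WT).

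SR proteins and their kinases had one in 2 of 10 genes (20.0%): TRA2B, an SR-like splicing activator (0.02 ± 0.02 CPM in P95H, 1.56 ± 0.97 CPM in WT), and SRRM2, a scaffold of nuclear speckles (0.18 ± 0.13 and 1.04 ± 0.44 CPM). Nonsense-mediated decay and exon junction factors also had one in 2 of 10, ACIN1 (listed at 0 in P95H, 1.34 ± 0.77 CPM in WT) and PNN (listed at 0 in P95H, 0.57 ± 0.50 CPM in WT), both associated with the exon junction complex. Translation factors and ribosomal proteins had one in 6 of 43, with EIF5B, which joins the ribosomal subunits (0.13 ± 0.08 and 4.70 ± 3.23 CPM), and EIF4H, a helper of the eIF4A helicase (listed at 0 in P95H, 1.36 ± 1.24 CPM in WT), after EIF3A.

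In the myelodysplasia list, which joins genes mutated in the disease with genes mis-spliced in it, 6 of 12 had one. After SMC1A came HNRNPA2B1 (0.02 ± 0.02 CPM in P95H, 1.49 ± 0.97 CPM in WT) and the Polycomb-associated ASXL1 (0.13 ± 0.11 and 1.35 ± 1.33 CPM). In ASXL1 the largest WT library held at least 96.7% of the signal, so its WT mean rests almost wholly on 1 library. Erythroid, megakaryocyte and haematopoietic regulators had one in 1 of 13 genes (7.69%), the repressor ETV6 (0.06 ± 0.04 and 1.17 ± 1.10 CPM).

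Signalling genes had one in 7 of 11 (63.6%), among them RAC2, GNB1, a G-protein beta subunit (0.19 ± 0.16 and 1.52 ± 1.5 CPM), and the kinase AKT1 (0.07 ± 0.07 and 1.15 ± 0.95 CPM). Their median ratio of WT standard error to mean was 0.97. Cytoskeletal and motor genes had one in 7 of 24 (29.2%). MYH9, the heavy chain of nonmuscle myosin, averaged 0.15 ± 0.15 CPM in P95H and 4.24 ± 3.29 CPM in WT, its light chain MYL6 was listed at 0 in P95H against 2.96 ± 2.94 CPM in WT, and EZR, the membrane linker ezrin, averaged 0.17 ± 0.17 and 3.28 ± 2.19 CPM.

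Heat shock proteins and chaperones had one in 5 of 18 (27.8%), led by CDC37, the Hsp90 co-chaperone of kinases (listed at 0 in P95H, 2.76 ± 2.30 CPM in WT). Cell cycle genes had one in 5 of 21 (23.8%), led by the retinoblastoma gene RB1 (listed at 0 in P95H, 1.42 ± 1.36 CPM in WT). Ubiquitin and proteasome genes had one in 4 of 11 (36.4%), led by the ubiquitin ligase HUWE1 (0.13 ± 0.13 and 2.32 ± 2.29 CPM), and transport and traffic genes in 4 of 12 (33.3%), led by SEC16A of endoplasmic reticulum exit sites (0.03 ± 0.02 and 1.72 ± 1.67 CPM). Mitochondrial genes had one in 4 of 8, led by CHCHD2 (0.03 ± 0.02 and 1.17 ± 1.15 CPM), and metabolic genes in 1 of 17 (5.88%), the thioredoxin gene TXN (0.10 ± 0.10 and 0.53 ± 0.50 CPM).

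**Figure D4:**
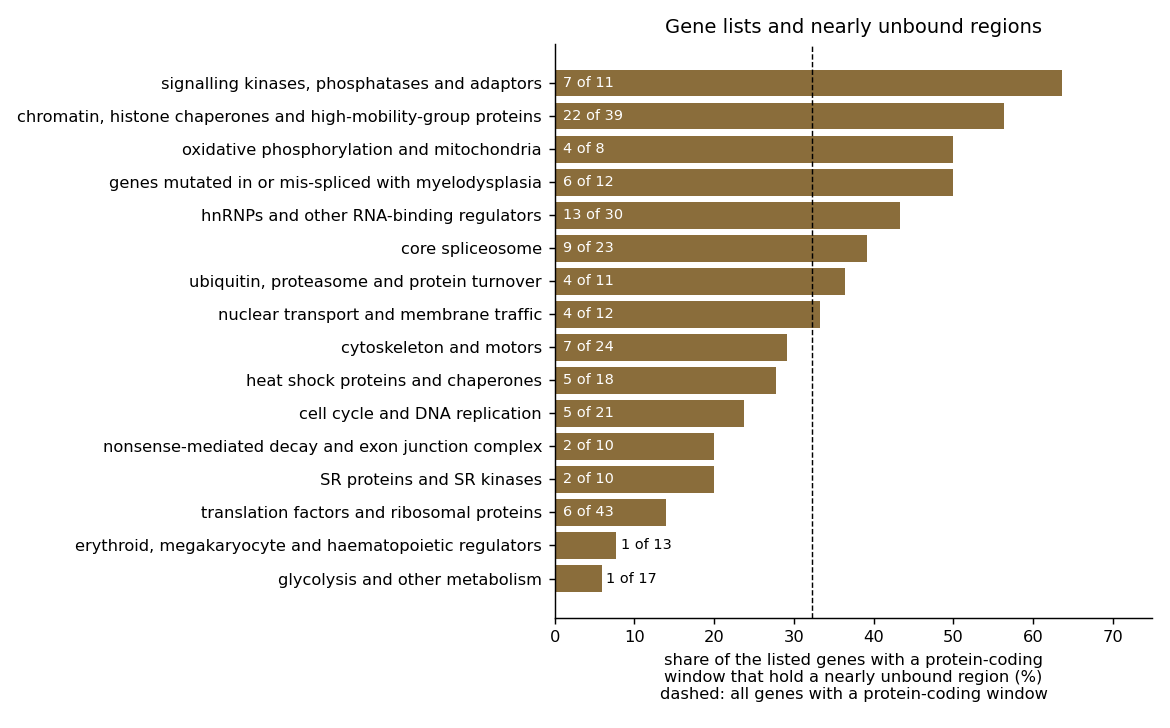
Share of the genes with any protein-coding window that hold a nearly unbound region, for 16 lists, with the counts in or beside the bars and the share over all such genes (32.3%) as a dashed line. Chromatin and histone chaperone genes (22 of 39) lie above the line and translation and ribosomal genes (6 of 43) below it, with no test of either.

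In 83 genes there were 2 or more nearly unbound regions. MYH9 had 5, spread from 61356 to 101203 bases from its start, with WT means from 0.64 to 4.24 CPM. NCL, HNRNPA1 and HNRNPA3 had 4 each. In NCL the WT means of the 4 regions were 6.52, 2.04, 0.76 and 0.51 CPM, and the P95H means 0, 0.12, 0.02 and 0.02 CPM. EZR had 3, with WT ratios of 0.67 each. Regions of a gene come from the same libraries and are not independent of each other.

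Other windows of the same genes did not all behave alike. Of the 515 genes, 178 (34.6%) also had regions lower in P95H that stayed at or above 0.2 CPM, and 65 (12.6%) had regions higher in P95H. Over all 1596 genes these shares were 49.9% and 39.0%, but a gene without a nearly unbound region is in the table only through a region of those kinds. In 68 of the 178 genes the other lower region overlapped the nearly unbound one or lay within 1 base of it, so that the bound divided a stretch of neighbouring windows. NCL had 10 other lower regions, with means of up to 8.97 CPM in P95H and 38.53 CPM in WT. HNRNPM had 4, reaching 13.91 CPM in P95H and 35.21 CPM in WT. For 302 genes (58.6%) every protein-coding region in the table was nearly unbound.

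Besides EWSR1, 3 genes had a region higher in P95H within 100 bases. In DAXX, a histone H3.3 chaperone gene, a region listed at 0 in P95H against 1.10 ± 0.75 CPM in WT lay 25 bases from one with 1.23 ± 0.93 CPM in P95H and 0.25 ± 0.21 CPM in WT. In HNRNPUL2, a paralogue of hnRNP U, 0.03 ± 0.02 CPM in P95H against 0.59 ± 0.43 CPM in WT lay 11 bases from 0.69 ± 0.67 CPM in P95H against 0.10 ± 0.10 CPM in WT. In PNN, which encodes pinin, the region named above lay 32 bases from one with 0.58 ± 0.37 CPM in P95H and 0.13 ± 0.12 CPM in WT. In all of these the means above 0 lie within 2 standard errors of 0, and the values per library are not part of the table.

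RNA levels of the same genes, which played no part in choosing them, were compared between P95H and WT. The RNA-seq libraries held 37414093 to 45005605 counts, so that 3 counts correspond to 0.0667 to 0.0802 CPM. SRSF2 itself stood at 223 and 252 CPM in P95H replicates 1 and 2, 222 and 241 CPM in WT replicates 1 and 2 and 285 CPM in the library labelled uninduced. The counts cannot separate construct from endogenous SRSF2 and do not show the labelled induction. Erythroid and megakaryocyte markers of HEL cells were present, with GATA1 at 124 to 160.2 CPM and ITGA2B at 504 to 808 CPM over the 5 libraries. Other members of these lists were low: ALAS2 stood at 2.28 to 6.15 CPM and HBG1 at 3.90 to 8.36 CPM, and PF4 was at 0 in the 4 induced libraries. Of the other cell types' markers, EPCAM was at 0 in all 5 and CD3E, MS4A1, COL1A1, MPO and CD14 were under 1 CPM, while KRT18 stood at 26.0 to 32.9 CPM.

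The RNA of genes with nearly unbound regions differed little between P95H and WT. Of the 515 genes, 506 passed the filter on low counts. The quasi-likelihood test of edgeR, adjusted by Benjamini-Hochberg, called 0 of them, as it called 0 of all 22007 genes (0%), and DESeq2 also called 0 in both. At an unadjusted p under 0.05, edgeR had 1 of the 506 (IL1RL1, named after its value was seen) and 1.03% of all genes. DESeq2 had 0 of the 513 members it tested and 98 of 38948 genes. With the replicate number as a block, 0 of the 506 were called, against 0.382% of all genes. In that edgeR fit 37 of the 506 had an unadjusted p under 0.05, 11 higher and 26 lower in P95H. Over all 22007 genes it was 1859, with 1103 higher and 756 lower.

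The log2 difference of P95H over WT had a median of -0.04 over the 506 genes, against 0.002 over all genes tested, and ran from -0.70 to 0.38. It lay within 0.25 of 0 for 491 genes (97.0%). The same share was not counted over all genes tested, so this one is not shown to be particular to these genes. In 92 genes both P95H libraries were below both WT libraries (18.2%, against 12.2% of all genes), and in 27 both were above (5.34%, against 12.1% of all genes). With DESeq2's size factors the median over the 506 genes was -0.05, where the median of all genes was -0.007.

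For no region of the 609 whose gene was tested was the RNA log2 difference as low as the binding log2 change in the authors' deposited table. The regions were chosen for a low P95H mean, and their binding changes were all -1.59 or lower. This count is therefore a description and not a test. LYAR RNA stood at 124 and 119 CPM in P95H and 121 and 121 CPM in WT (log2 difference 0.02, SE 0.10), with libraries of the genotypes overlapping. NCL stood at 2552 and 2626 CPM in P95H and 2541 and 2632 CPM in WT (0.01, SE 0.13). CALD1 stood at 15.1 and 14.7 CPM in P95H and 16.3 and 14.7 CPM in WT (-0.04, SE 0.14), again overlapping.

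The other genes of the 12 highest regions stayed between -0.18 for C7orf50 and 0.05 for APOBR. C7orf50, at 14.04 and 16.86 CPM in P95H and 18.3 and 17.0 CPM in WT (SE 0.15), was the one in which the libraries did not overlap. DHX38 stood at 69.6 and 82.8 CPM in P95H and 69.5 and 84.1 CPM in WT, and ZMAT2 at 54.5 and 58.0 CPM in P95H and 55.5 and 55.7 CPM in WT. In both genes the libraries of the genotypes overlapped.

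Among genes averaging at least 1 CPM, the lowest RNA differences were in DACT3, a regulator of Wnt signalling (0.608 and 1.19 CPM in P95H, 1.24 and 1.74 CPM in WT, log2 difference -0.70, SE 0.43), PFKFB4, an enzyme that sets fructose 2,6-bisphosphate levels (14.7 and 3.52 CPM in P95H, 20.8 and 3.47 CPM in WT, -0.41, SE 0.90), and the lysosomal protease CTSD (11.8 and 18.05 CPM in P95H, 15.6 and 22.04 CPM in WT, -0.32, SE 0.26). The highest were in MYLIP, a ubiquitin ligase for lipoprotein receptors (28.8 and 31.6 CPM in P95H, 30.4 and 16.4 CPM in WT, 0.38, SE 0.28), TMC6 (0.37, SE 0.23) and GSDMB, a gasdermin (0.36, SE 0.28). None of these 6 passed edgeR's test (adjusted p 0.9999 for each). In PFKFB4 replicates 1 and 2 differed far more within each genotype than same-numbered libraries did between genotypes.

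**Figure D5:**
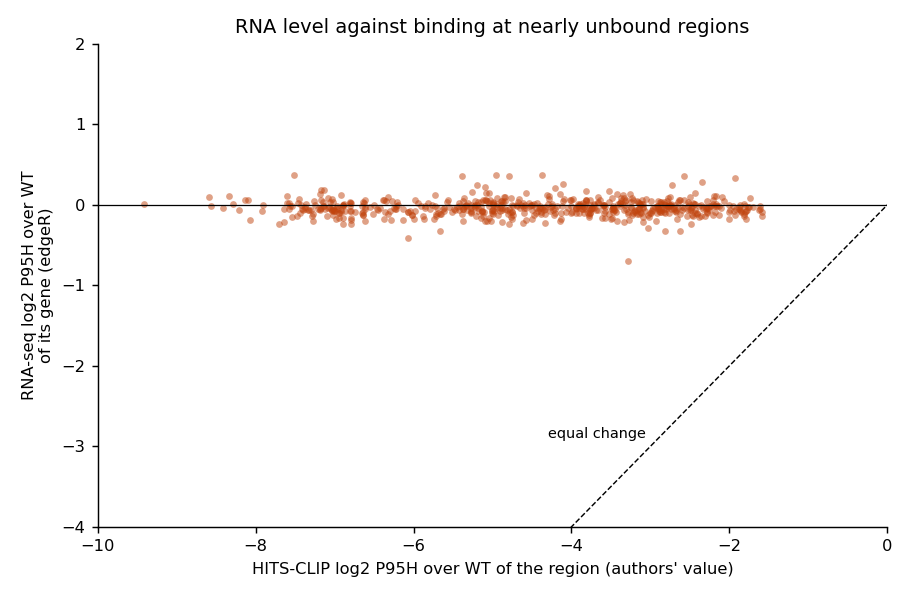
RNA-seq log2 difference of P95H over WT of the gene (edgeR, 2 libraries per genotype) against the HITS-CLIP log2 change of the region in the authors' deposited table, for 609 nearly unbound regions. The dashed line marks equal change. All points lie above it, in a band around 0 that reaches from -0.70 to 0.38. The regions were chosen for low P95H binding, so their place relative to the line is not a test.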

How the data were processed

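The HITS-CLIP table is the authors' own comparison. Per the file headers, it gives for each window a log2 change of P95H over WT, an adjusted p (FDR, a p-value as deposited), and the mean CPM and its standard error per genotype. Neither the adjustment method nor the total behind CPM is stated in those sources, and the depth of these libraries is unknown. RNA-seq values are raw counts per gene, as deposited by the authors. The build GRCh38.p3 and the tools TopHat2 2.0.14, STAR 2.5.3a and edgeR are listed, without roles, per the submitters' processing notes. The counter and its use of strand were not given there.

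Windows were filtered by transcript class and P95H mean, counted once per position by the first row, and merged where they overlap on a strand. Each region stands for its window with the smallest adjusted p. With r the ratio of standard error to mean, the largest library holds at least the greater of (1 + r) / 4 and (1 + 3r²) / 4, and at most (1 + 3r) / 4, of the sum over 4 libraries, with r taken at either end of the rounding of 0.005 CPM. Genes were matched to the count table by symbol and overlapping position, and from there by Ensembl ID. Motifs were searched on the RNA strand only. The count model was fitted by edgeR 4.0.16 under R 4.3.3 (filterByExpr, TMM, quasi-likelihood test, two-sided, on group alone, 2 P95H against 2 WT libraries) and DESeq2 1.42.0. The edgeR fits were first run on simulated counts drawn independently for each library. That run does not cover deviations shared by same-numbered libraries. CPM of RNA are TMM-scaled. Tables were handled in Python 3.11.15 with pandas 2.3.3.

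The members, gene lists and comparisons were chosen with earlier results of these data known. Genes named were SRSF2, those of the 12 regions with the highest WT mean, those with the most regions, those next to the bound, the 5 lowest and 5 highest ratios, up to 3 of each list, and the 3 highest and 3 lowest RNA differences. Some genes that this rule names are not reported here. Others, such as those with an opposite region close by, were named after their values were seen. The transcript feature of each region (coding, UTR or intron) was not analysed here.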

Additional observations from a re-analysis of the deposited data

How the results depend on the processing

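A bound of 0.1 CPM in P95H gave 401 regions in place of 620, with the largest WT library at 50% or more in 93.5% and at 75% or more in 68.6% of them. The cause was not tested. A bound of 0.3 (811 regions), removal of repeated positions before the class filter (619), merging of windows that touch (618) and an adjusted p of at most 0.01 (582) kept the count within 1.5 times. Under the other bounds, the stricter adjusted p, the window with the highest WT mean and 10 bases added at each end, shares of regions with GGNG stayed between 55.6% and 71.4% and with CCNG between 26.7% and 33.3%. The transcript feature of the regions was planned and not run.

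No member gene was called in RNA under any alternative run that kept all libraries. The median log2 difference of members stayed negative, from -0.06 with DESeq2 to -0.02 without WT replicate 2. Over all genes tested the median ran from -0.01 without P95H replicate 2 to 0.02 without WT replicate 1. Between P95H replicate 2 and WT replicate 1 alone, the median was -0.002 over members and -0.011 over all genes. In each other pair of libraries the members were the lower. With the replicate block the member median was -0.04 and 0 of 506 members were called. Deviations of same-numbered libraries correlated at 0.654 across genes, and the labels do not say what the numbers share. None of the named RNA differences was called, and several changed sign. With DESeq2 LYAR stood at -0.0029 and NCL at -0.0087. With the filter of 1 CPM in 2 libraries, RILPL2 stood at 0.0090, DHX38 at 0.012 and HMGN5 at 0.00067. Leaving out each library in turn gave -0.020 to 0.039 for LYAR, -0.13 to 0.032 for CALD1, -0.020 to 0.028 for NCL, -0.19 to 0.32 for APOBR, -0.19 to 0.17 for FBL and -0.073 to 0.045 for RILPL2. It gave -0.14 to 0.13 for DHX38, -0.028 to 0.066 for ZMAT2, -0.15 to 0.10 for HMGN5, -1.78 to 1.40 for PFKFB4, -0.012 to 0.89 for MYLIP and -0.056 to 0.13 for SRSF2. The other named genes kept their sign, but their size moved by over 1.5 times: -0.33 to -0.063 for C7orf50, -0.14 to -0.021 for EIF3A, -0.17 to -0.0062 for AP3D1, -1.28 to -0.31 for DACT3, -0.67 to -0.053 for CTSD, 0.048 to 0.75 for GSDMB and 0.048 to 0.77 for TMC6. Such fits assume that the lone library varies like the other genotype.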

Other observations

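Some nearly unbound regions lay in genes with hardly any RNA-seq counts assigned to them. Of the 515 genes, 14 averaged under 1 CPM in RNA-seq over the P95H and WT libraries. PRM3, a protamine-family gene, and the read-through gene RPS10-NUDT3 had no assigned count in any of the 5 libraries. By counting error alone, 0 counts allow up to 0.0667 to 0.0802 CPM (3 counts, per library). How reads shared by overlapping genes were counted is not given, so for a read-through gene 0 assigned counts need not mean absent RNA. The regions of PRM3 and RPS10-NUDT3 averaged 0.17 ± 0.13 and 0.02 ± 0.02 CPM in P95H, against 0.83 ± 0.69 and 1.26 ± 0.87 CPM in WT. ANP32D, an intronless relative of ANP32A, stood at 0.127 and 0.135 CPM of RNA in P95H and 0.375 and 0.0248 CPM in WT, with a region at 0.09 ± 0.04 CPM in P95H and 1.55 ± 1.45 CPM in WT. ZRSR1, an intronless relative of the splicing factor gene ZRSR2, had RNA at 0.127 and 0.0676 CPM in P95H and 0.0441 and 0.0248 CPM in WT, and a region at 0.05 ± 0.03 CPM in P95H and 1.24 ± 1.10 CPM in WT. CNGA1, a photoreceptor channel gene, had RNA at 0.304 and 0.180 CPM in P95H and 0.199 and 0.174 CPM in WT, with at least 98.1% of the WT binding signal (1.55 ± 1.54 CPM) in 1 library. Whether reads of related or overlapping genes account for these windows was not tested.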
